A study of Mus musculus with 2 samples.

Results

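Genes that move iron and heme into, within and out of liver cells were read in the livers of 2 male mice, 1 control and 1 lacking Tmprss6. The set holds 10 genes, chosen by name: Slc39a14, Scara5, Slc46a1, Flvcr1, Steap3, Cp, Trf, Lrp1, Ncoa4 and Heph. A gene was read by every probe set that the platform annotation assigns to it alone, which gave 26 of the 45101 probe sets on the array, for 9 of the 10 genes, among 18193 genes named in this way. The probe set of Trf, the gene of plasma transferrin, is assigned to Trf and Srprb together, so by this rule Trf has no value here. Both animals were 3 months old, of mixed 129Sv/C57BL6 background, and were sampled after an overnight fast. The control group is 1 animal described only as a control, with no genotype stated, and the other group is 1 animal with the genotype Tmprss6-/-, from a line made by gene targeting. RNA came from whole liver, so each value sums all its cell types. With 1 array per group no replicate error or test exists, and every difference is one between these 2 animals.

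Iron reaches hepatocytes bound to transferrin, as iron that transferrin does not hold once it is saturated, inside ferritin, or as heme on hemopexin. Reductases convert ferric to ferrous iron so that importers can carry it, ferroxidases convert it back so that transferrin can bind it, and ferritin holds the rest until it is broken down. Tmprss6 encodes matriptase-2, a hepatocyte protease that restrains hepcidin, the hormone that closes the iron exporter ferroportin. The comparison asks how the uptake and transport genes differ between a liver without the protease and a control liver.

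Of the 9 genes with a probe set of their own, 8 reached the floor of 17.8 on both arrays and 1, Heph, on neither. The floor is the median signal of all probe sets, and stands in for a detection call. A gene that reached it on either array is called measured. Taking for each gene its brightest probe set, 2 of the 8 measured genes were at least 1.5-fold higher in the Tmprss6-deficient liver, Scara5 and Slc39a14. Over all 12243 measured genes, 8.83% were that much higher. Of the 8, 0 were at least 1.5-fold lower, against 9.20% of all measured genes. At 2-fold, Scara5 alone was higher, against 2.38% of all measured genes, and 0 were lower, against 2.78%. The other 6 genes (Slc46a1, Flvcr1, Steap3, Cp, Lrp1 and Ncoa4) lay within 1.5-fold. The median log2 ratio of the 8 genes was 0.16, against -0.0050 for all measured genes. The genes were listed with results of these arrays already known, so these counts describe the set and support no statement about iron genes in general.

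**Figure D1:**
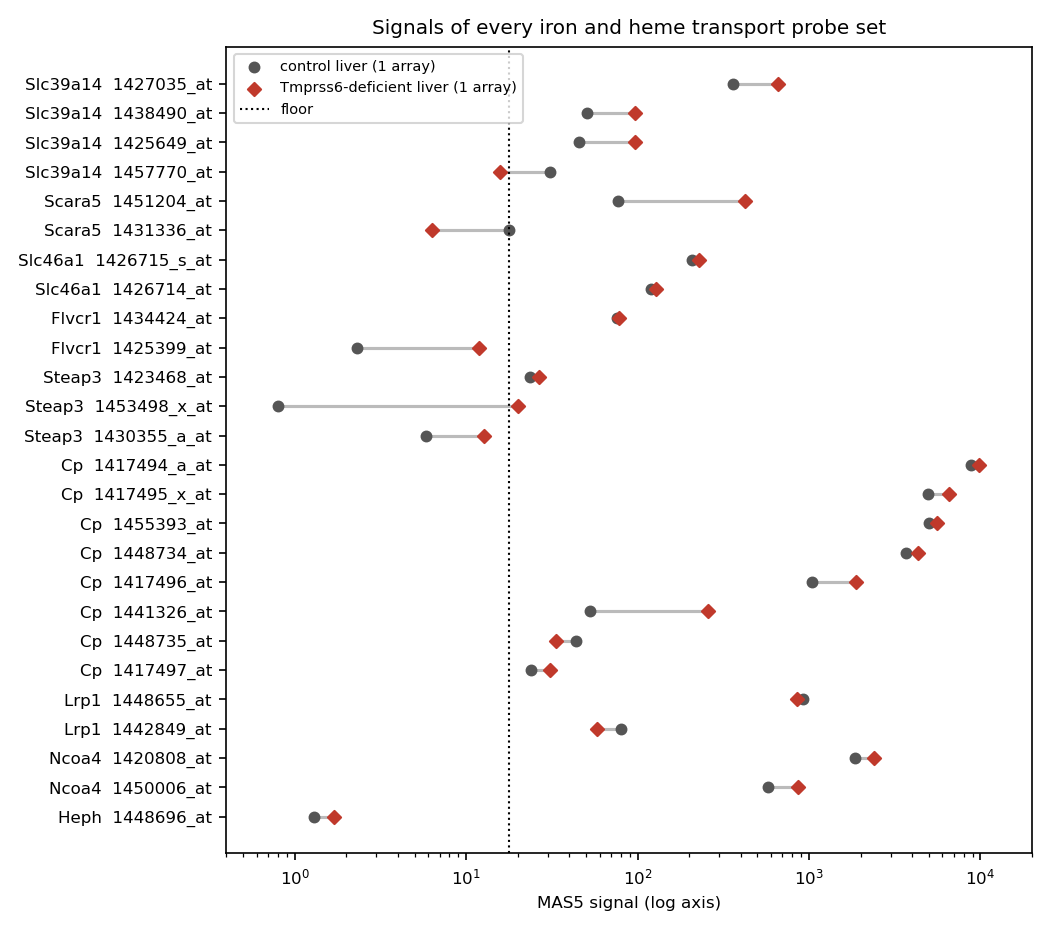
MAS5 signal on a log axis for each of the 26 probe sets, with the control array as a grey circle, the Tmprss6-deficient array as a red diamond, and the floor of 17.8 as a dotted line. Scara5 1451204_at moves from 76.9 to 423 and Cp 1441326_at from 53.1 to 257, while Heph stays at 1.3 and 1.7, below the floor.

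Probe sets of the same gene give the only error available. The SD of the log2 ratio between the sets of a gene was 0.44 for signals from 17.8 to 64, 0.35 from 64 to 256, 0.26 from 256 to 1024 and 0.16 above 1024, and it leaves out the variation between animals. Of the 26 probe sets, 20 reached the floor on both arrays, 1 in the control alone, 1 in the other liver alone and 4 on neither. Of these 20 sets, 17 had a log2 ratio above 0, against 51.8% of all 17433 sets of a named gene that reached it on both. The 17 include 7 sets of Cp and 3 of Slc39a14, so they are not 17 separate readings. One of the 17, for Flvcr1, turned to -0.027 when the arrays were scaled to the same median, -0.0084 with quantile normalization and -0.015 with loess. At 1.5-fold, 7 of the 20 sets were higher and 0 were lower, against 9.62% and 7.97% of all such sets. The 7 sets come from 4 genes, 3 of them from Slc39a14, 2 from Cp and 1 each from Scara5 and Ncoa4, so they are not 7 separate readings.

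**Figure D2:**
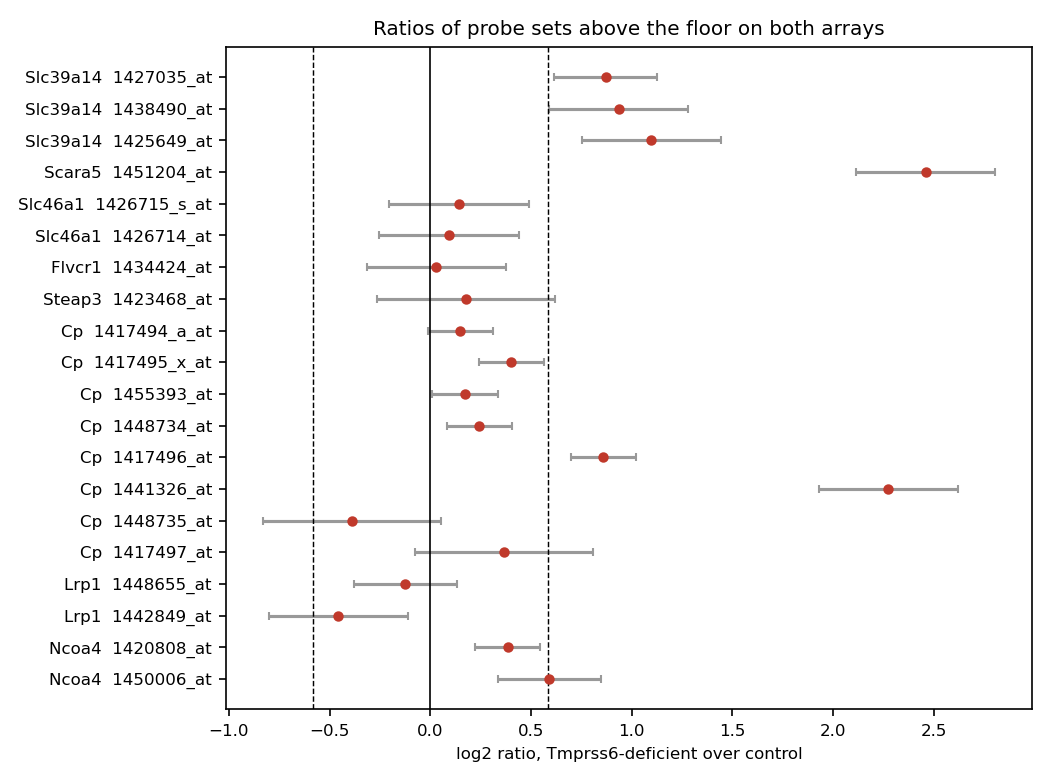
Log2 ratio of the Tmprss6-deficient over the control signal for the 20 probe sets that reached the floor on both arrays, with bars of 1 SD of the spread between probe sets at that signal and dashed lines at 1.5-fold. The 3 sets of Slc39a14 lie between 0.87 and 1.10, and the 8 sets of Cp between -0.39 and 2.27.

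The labels were checked on the targeted gene first. Tmprss6 read 1868 in the control and 88.1 in the Tmprss6-deficient liver, 21.2-fold lower, in the direction of the labels. Hamp, the hepcidin gene, read 6593 and 17531 on 1 of its 2 probe sets. The 10 hepatocyte markers were all within 1.5-fold, as were 82.0% of all measured genes. Their signals lie above 1024, where the spread between probe sets is narrowest, at 0.16. Their median log2 ratio was -0.055, and their summed signal was 201994 in the control and 193230 in the other liver. Of 8 intestine and pancreas markers, 4 (Vil1, Cdx1, Cdx2 and Cpa1) lay under the floor throughout and 4 were measured. Among these, Fabp2, the gene of a fatty acid-binding protein of the intestine, read 2045 and 2078, and Cela1, a pancreatic elastase gene, read 229 and 146, 1.57-fold lower. The median log2 ratio was -0.28 over 5 measured neutrophil markers. At 1.5-fold, 2 of these 5 were higher and 0 lower, against 8.83% and 9.20% of all measured genes. Over 10 sinusoidal endothelial markers the median was 0.13, and among these 10 Lyve1 was 4.71-fold higher and Clec4g 1.98-fold lower. In the other lists, 4 of 4 cholangiocyte, 3 of 4 erythroid and 3 of 5 lymphocyte markers reached the floor on 1 array, so their medians of -0.45, -0.78 and 0.41 rest largely on bounds. At 1.5-fold, 0 of the 4 measured erythroid markers were higher and 2 lower, against 8.83% and 9.20% of all measured genes. Of these, Alas2 was 2.56-fold and Klf1 at least 3.23-fold lower. The other 2 lay within 1.5-fold, 1 of them, Slc4a1, at least 1.05-fold higher, and 2 further erythroid markers were below the floor on both arrays.

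Among the routes into the cell, the ferritin receptor gene stood farthest from 0. Scara5 encodes a scavenger receptor of class A that takes up iron-loaded ferritin. Its probe set 1451204_at read 76.9 in the control and 423 in the Tmprss6-deficient liver. The signal was 5.50-fold higher, a log2 ratio of 2.46 against a spread of 0.35 between probe sets at that signal. It ranked 8 from the top among 10243 genes that reached the floor on both arrays. Only 0.297% of the probe sets in its signal range, 64 to 256, had a ratio as far from 0. The second probe set, 1431336_at, read 17.7 and 6.3, below the floor on both arrays, so Scara5 rests on 1 probe set. Of the 10 genes with a probe set of their own that lie nearest to Scara5 on chromosome 14 in the RefSeq gene table, 6 were measured. At 1.5-fold, 0 of them were higher and 2 lower, against 8.83% and 9.20% of all measured genes. Some of the 6, Scara3 among them, reached the floor on 1 array alone and entered at their bound. Zfp395 was 3.30-fold lower and Scara3, another scavenger receptor gene, at least 2.62-fold lower. Elp3, the nearest measured neighbour on one side, read 135.7 and 146, and Clu, which encodes clusterin, read 10499.7 and 10443.

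Scara5 is known in mesenchymal cells, so the values of their markers are given beside it. Of 15 stellate cell and fibroblast markers on the array, 14 were measured, of which 1 was higher and 3 were lower at 1.5-fold, against 8.83% and 9.20% of all measured genes, and their median log2 ratio was 0.052. Their summed signal was 3951 in the control and 3686 in the Tmprss6-deficient liver. Acta2 (smooth muscle actin) was 5.76-fold lower and the matrix protein gene Dpt 4.53-fold lower. Hhip, the 1 higher marker, read 24.7 and 41.6, 1.68-fold higher in the dim range. Pi16, a marker of adventitial fibroblasts, was below the floor on both arrays. In whole liver, fewer cells of a type and less RNA per cell cannot be told apart, and the part of these cell types in the Scara5 signal was not tested.

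Slc39a14 was higher as well, and on more probe sets. It encodes ZIP14, the membrane carrier through which hepatocytes take up zinc, manganese and iron that is not bound to transferrin. Probe set 1427035_at read 359 in the control and 657 in the Tmprss6-deficient liver, 1.83-fold higher. The sets 1438490_at and 1425649_at read 50.5 and 96.5, and 45.3 and 96.9, or 1.91-fold and 2.14-fold higher. All 3 ratios exceeded the spread at their signal, and their mean was 0.97 ± 0.12 on the log2 scale (SD over 3 probe sets of the same 2 arrays). In their signal ranges, 3.61%, 4.90% and 3.13% of probe sets had ratios as far from 0. The fourth set, 1457770_at, pointed the other way, with 31 in the control and 15.7, below the floor, in the Tmprss6-deficient liver, at least 1.74-fold lower. Its signals lie where the spread between probe sets is widest, at 0.44. Its bound of -0.80 on the log2 scale was still larger than that spread. The mean of 0.97 leaves this set out. Of the 10 nearest genes on chromosome 14 with a probe set of their own, 6 were measured, with 2 higher (Ppp3cc 1.63-fold and Polr3d 1.85-fold) and 1 lower (Ccar2 1.57-fold). Over all measured genes, 8.83% were higher and 9.20% lower at 1.5-fold. Slc39a8, the gene of the related carrier ZIP8, read 230 and 216 on its brightest probe set, while its second set read 35.8 and 60, 1.68-fold higher, so its sets pointed in opposite directions.

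**Figure D3:**
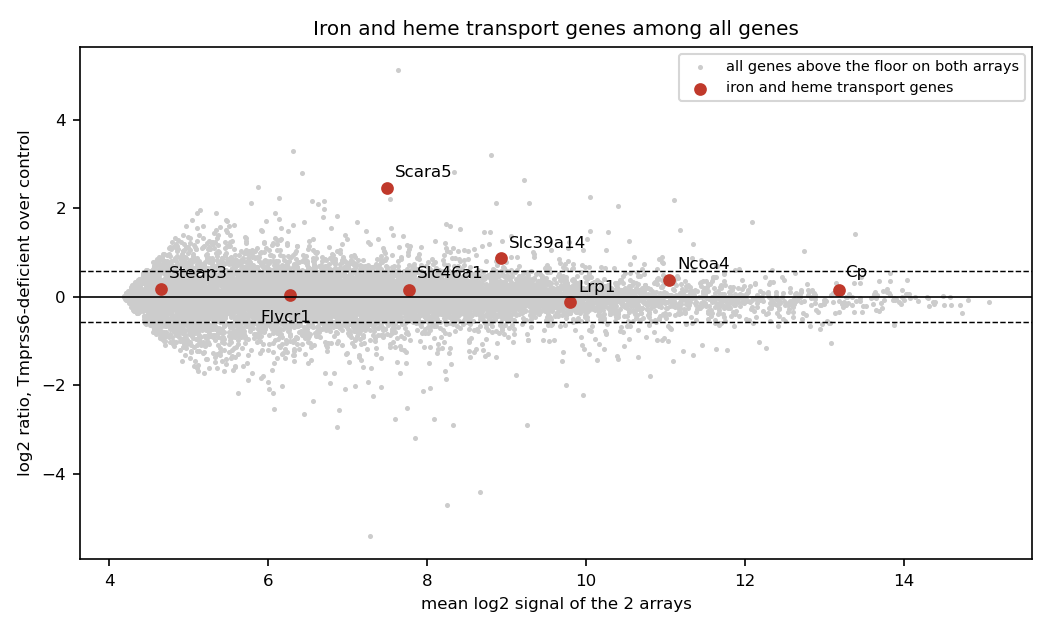
Log2 ratio (Tmprss6-deficient over control) against the mean log2 signal of both arrays, with 1 grey point for each of 10243 genes that reached the floor on both and the 8 measured iron and heme transport genes in red; dashed lines mark 1.5-fold. Scara5 and Slc39a14 lie above the upper line, and the other 6 genes lie between the lines.

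Heme carriers differed little. Slc46a1 encodes a carrier known as the proton-coupled folate transporter, first described as a heme carrier. Its sets read 208 and 230 (1426715_s_at) and 120.5 and 128 (1426714_at), control first. The log2 ratios of 0.14 and 0.092 were smaller than the spread of 0.35. Flvcr1, a heme exporter and choline transporter gene, read 76.3 and 77.9 on 1434424_at, while 1425399_at read 2.3 and 11.9, below the floor on both arrays. Among probe sets of that signal range, 93.6% had ratios farther from 0 than 1434424_at, or as far.

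Lrp1 had ratios below 0 on both of its probe sets. It encodes the large endocytic receptor that takes up heme bound to hemopexin, together with many other ligands. Probe set 1448655_at read 927 in the control and 850.4 in the other liver, a log2 ratio of -0.12 against a spread of 0.26. Probe set 1442849_at read 80 and 58.3, a ratio of -0.46 against a spread of 0.35, so 1 of the 2 differences was larger than the spread. Both lay within 1.5-fold. Macrophages also carry Lrp1, and of 11 Kupffer cell and macrophage markers 1 was higher and 4 were lower at 1.5-fold, against 8.83% and 9.20% of all measured genes, with a median log2 ratio of -0.53 and a summed signal of 4184 and 3026. Among them C1qb was 1.89-fold lower and Marco 1.76-fold higher. The part of these cells in the Lrp1 signal was not tested.

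Ncoa4 encodes the receptor that carries ferritin to the lysosome, where its iron is released. It read 1847 in the control and 2409 in the Tmprss6-deficient liver on 1420808_at, and 574 and 864 on 1450006_at. Both sets were higher, by 1.30-fold and 1.51-fold, and both differences were larger than the spread of 0.16 and 0.26 on the log2 scale at their signals. The gene lay within 1.5-fold on the first set and just past it on the second. The annotation gives both sets the same sequence record. Of probe sets in the same ranges, 18.1% and 8.60% had ratios as far from 0.

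The reductase and ferroxidase genes gave one gene near the floor, one with disagreeing probe sets and one below the floor. Steap3, the endosomal ferrireductase of the transferrin cycle, read 23.6 and 26.7 on 1423468_at, a log2 ratio of 0.18 against a spread of 0.44. Set 1453498_x_at read 0.8 and 20.2, reaching the floor in the Tmprss6-deficient liver alone, and was at least 1.13-fold higher, and 1430355_a_at read 5.8 and 12.8, below it on both. Little can be read from signals this low. Heph, a membrane-bound ferroxidase gene known from the enterocyte, read 1.3 and 1.7 and got no ratio.

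Cp encodes ceruloplasmin, the plasma ferroxidase that hepatocytes secrete, and its 8 probe sets did not give 1 answer. The set with the highest signal, 1417494_a_at, read 8872 in the control and 9837 in the Tmprss6-deficient liver, 1.11-fold higher. Sets 1417495_x_at (4968 and 6568), 1455393_at (4981 and 5615) and 1448734_at (3672 and 4348.5) were 1.32-fold, 1.13-fold and 1.18-fold higher. These 4 sets lay within 1.5-fold and on the same side of 0. Set 1417496_at read 1042.5 and 1891, 1.81-fold higher, a log2 ratio of 0.86 against a spread of 0.16 at that signal. Set 1441326_at read 53.1 and 257, 4.84-fold higher, and only 0.375% of sets in its range had a ratio as far from 0. The dim sets 1417497_at (24 and 30.9) and 1448735_at (43.7 and 33.4) were 1.29-fold higher and 1.31-fold lower. Of the 8 sets, 6 carry the same sequence record in the annotation, and their log2 ratios still ran from -0.39 to 0.86. Over the 8 sets the median log2 ratio was 0.30, and the mean was 0.51 ± 0.79 (SD over probe sets). So a value for Cp depends on the probe set: 2 sets passed 1.5-fold and 6 did not. Which transcripts each set detects was not analysed here.

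Promoter windows from RefSeq on GRCm38.p6, 250 bases before to 50 after each start, were listed for 6 of the 10 genes, in 12 windows. The table held none for Slc39a14, Scara5, Trf and Heph. Letter matches were counted on both strands for GGCGCC, the core of the BMP response element, TTCNNNGAA, a STAT motif, ACGTG, the core of the hypoxia response element, and TGACNNNGC, the core of the antioxidant response element. GGCGCC was in 0 of the 12 windows, against 11.9% of all 32851 windows. TTCNNNGAA was in 1 window, that of Lrp1, against 8.30% of all. ACGTG was in 2 windows of Ncoa4, against 19.6%, and TGACNNNGC was in 3, of Flvcr1, Lrp1 and Ncoa4, against 12.4%. A match is a run of letters, not a shown site. Some windows of the same gene overlap. The 250 bases before the start are printed for Ncoa4, higher on both probe sets, Lrp1, lower on both, and Cp, whose sets disagreed, with the matches to these motifs in capitals. The windows are chr14:32165539-32165788 on the plus strand for Ncoa4, chr10:127621149-127621398 on the minus strand for Lrp1 and chr3:19956999-19957248 on the plus strand for Cp, each read 5′ to 3′ along the gene.
Ncoa4: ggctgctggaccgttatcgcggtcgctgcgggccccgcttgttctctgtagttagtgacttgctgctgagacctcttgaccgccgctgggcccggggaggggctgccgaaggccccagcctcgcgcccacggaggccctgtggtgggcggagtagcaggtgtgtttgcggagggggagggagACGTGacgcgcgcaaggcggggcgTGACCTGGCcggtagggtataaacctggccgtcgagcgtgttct
Lrp1: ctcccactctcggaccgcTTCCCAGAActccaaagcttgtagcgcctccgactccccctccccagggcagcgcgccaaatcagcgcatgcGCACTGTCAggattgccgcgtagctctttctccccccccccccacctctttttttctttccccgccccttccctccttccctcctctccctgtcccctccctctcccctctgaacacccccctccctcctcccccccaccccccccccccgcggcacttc
Cp: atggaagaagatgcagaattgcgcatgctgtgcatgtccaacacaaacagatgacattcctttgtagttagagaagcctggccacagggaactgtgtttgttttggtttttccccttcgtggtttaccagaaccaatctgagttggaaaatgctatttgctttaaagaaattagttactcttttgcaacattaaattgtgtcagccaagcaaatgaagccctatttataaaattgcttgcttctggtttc
The printed Ncoa4 window holds ACGTG from base -68 and TGACCTGGC from base -44, counted from the start. It holds more matches than the other windows of Ncoa4. The one that begins at 32159637 holds ACGTG alone, on the other strand, and the one that begins at 32165336 holds none. The Lrp1 window holds TTCCCAGAA from base -232 and GCACTGTCA, which is TGACNNNGC on the other strand, from base -160. The printed Cp window holds none of the 4 motifs, and neither does the other Cp window.

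Other genes of iron and heme handling were described from 6 lists. Of 42 genes with a probe set of their own, 40 were measured, with 5 higher and 1 lower at 1.5-fold, against 8.83% and 9.20% of all measured genes, and a median log2 ratio of -0.027. Of the 40, 5 reached the floor on 1 array and entered at their bound. On their brightest sets, 6 of 6 transferrin cycle genes lay within 1.5-fold, as did 82.0% of all measured genes. Dimmer sets of 2 of them did not: Hfe, whose product binds the transferrin receptor, read 34.5 and 55.4 on its second set, 1.61-fold higher, and Slc11a2, the endosomal iron carrier gene, read 17 and 40.9 on another set, at least 2.30-fold higher. Tfr2, the second transferrin receptor gene, read 3885 and 3283 on its brightest set and 2081 and 2289 on the other. Snx3, a sorting nexin gene of receptor recycling, read 1280 and 1191.

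Among routes that bypass transferrin, 2 of 5 measured genes were higher and 0 lower at 1.5-fold, against 8.83% and 9.20% of all measured genes. Both are of the lipocalin route, and the median log2 ratio of the 5 genes was -0.089. Lcn2, whose product binds siderophores loaded with iron, read 170.5 and 534, 3.13-fold higher. Slc22a17, the gene of a lipocalin-2 receptor, read 14.8 and 34, at least 1.91-fold higher at a dim signal. Cybrd1, a ferrireductase gene of the duodenum, was below the floor.

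Of the genes of ferritin and its handling, 7 of 8 lay within 1.5-fold, against the 82.0% of all measured genes. Fth1, the ferritin heavy chain gene, read 13346 and 14916. Pcbp2, the gene of an iron chaperone that loads ferritin, read 2128.5 and 2603 on its brightest set and 166 and 138 on another, in opposite directions. Timd2 encodes a receptor for heavy chain ferritin, and read 926 and 548 on 1418765_at and 173 and 139 on 1418766_s_at, 1.69-fold and 1.25-fold lower. So the genes of 2 ferritin receptors, Scara5 and Timd2, differed in opposite directions between the livers.

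Scavenging and heme genes lay within 1.5-fold for 11 of 12, against the same 82.0%. Hpx, the gene of the heme-binding plasma protein hemopexin whose complex Lrp1 takes up, read 16474 and 17076, and the haptoglobin gene Hp read 15580 and 15102. Hebp2, a heme-binding protein gene, was 1.73-fold higher in the dim range (24.4 and 42.1), with another set that reached the floor in the control alone and was at least 1.06-fold lower.

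Of the exporter and the remaining reductase and ferroxidase genes, 4 were measured. At 1.5-fold, 2 were higher and 0 lower, against 8.83% and 9.20% of all measured genes. The 2 higher genes, Steap4 and Steap2, are of the Steap family of metalloreductases, whose genes Steap1 and Steap3 lay within 1.5-fold on their brightest sets. Steap4 was 2.14-fold higher (207 and 443) and 1.89-fold higher (81 and 153) on its 2 sets. Steap2 was 1.73-fold higher in the dim range (29 and 50.2), with a second set that reached the floor in that liver alone and was at least 2.81-fold higher, and Steap1 read 24 and 20. Slc40a1, the ferroportin gene, read 1725 and 1512.5 on one set and 501 and 526 on the other. Hephl1, the third multicopper ferroxidase gene beside Cp and Heph, was below the floor. The 5 mitochondrial iron genes were within 1.5-fold, as were 82.0% of all measured genes, with Tmem14c at 748 and 753 and Slc25a28, the gene of the iron importer mitoferrin-2, at 185 and 230.3.

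**Figure D4:**
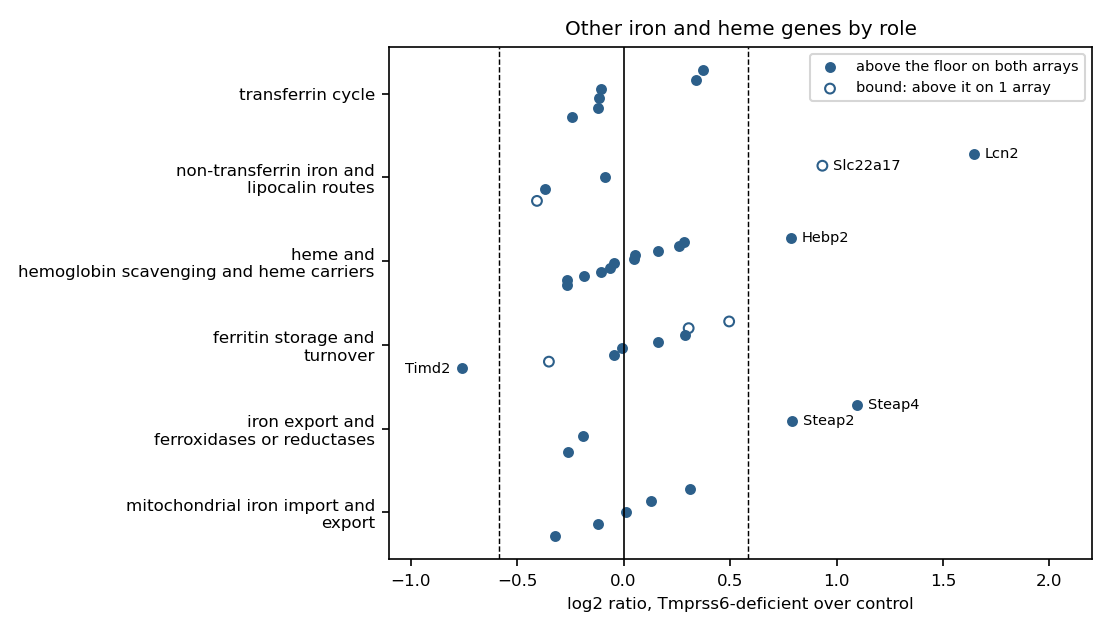
Log2 ratio (Tmprss6-deficient over control) of the 40 measured other iron and heme genes, in rows by role, with filled points for genes measured on both arrays, open points for the 5 with only a bound, and dashed lines at 1.5-fold. Lcn2, Steap4, Slc22a17, Steap2 and Hebp2 lie to the right of the lines and Timd2 to the left.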

How the data were processed

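Liver RNA was labelled with biotin by in vitro transcription and hybridised to Affymetrix arrays, per the labels' protocols. The authors deposited intensity signals on a linear scale for every probe set, and MAS5 is the tool that the submitters' processing notes name, with no version or settings. The mean signal without the lowest and highest 2% of probe sets was 100.0 on both arrays, so they were already scaled alike. Saturation and detection calls were not assessed.

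Scaling to that mean (factor 1) was followed by a floor of 17.8, the median without the 64 control sets, and log2. Below the floor on 1 array a ratio is a bound; below it on both there is none. Genes take their brightest probe set. Of 45101 probe sets, 34958 had 1 gene symbol, 932 several and 9211 were not in the annotation; 34754 gene identifiers matched RefSeq (GRCm38.p6). The members and lists were chosen with earlier results of these data known. Named genes are all members, Tmprss6 and Hamp, the 2 brightest of each iron list and each gene 1.5-fold or more apart, up to 2 markers per cell type, and neighbours 1.5-fold or more apart; Elp3, Clu, Hfe, Slc11a2, Steap1, Cybrd1, Hephl1 and single markers were named after their values were seen. Protein comparisons were not made, since no protein sequences were used here. The procedure was tested on simulated data (Python 3.11.15, numpy 2.4.6, pandas 2.3.3). The noise there was equal at all signals and the changed genes had a probe set well above the floor. Changes in dim genes and bounds were therefore not tested.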

Additional observations from a re-analysis of the deposited data

How the results depend on the processing

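With 1 array per genotype no replicate could be left out. No paired analysis was possible because each group has 1 sample and no test was made. The scaling factor was 1, so leaving out the scaling was no separate check. It changed no count or median of the member genes or of the other iron genes, and the median over all measured genes was then -0.0044. Across median scaling, loess, quantile normalization, the floor as a pseudocount, and floors at percentile 30 or 70, Scara5 stayed between 2.22 and 2.46 on the log2 scale and Slc39a14 1427035_at between 0.81 and 0.87. Of 22 member probe sets with a ratio, 21 kept their sign, Flvcr1 being the exception. At 2-fold, 1 member gene was higher. With the mean of all probe sets the median over members was 0.33. The Steap3 set 1453498_x_at read 1.57 with a floor at percentile 30 and 1.03 with the pseudocount.

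The alternatives for the other iron genes were added after seeing the data. Their count of lower genes was 5 with a floor at percentile 30, 2 with the pseudocount, and 0 at 2-fold or with the mean of the sets that reached the floor on both arrays. Their count of higher genes was 7 with a floor at percentile 30 and 4 with the mean of those sets. It was 2 with a floor at percentile 70 or at 2-fold and 1 with plain probe sets only, which leave out 12 of the measured genes.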
